A study of Bos taurus with 30 samples.

Results

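The 9 genes described here encode components of the tight junction and were chosen by name from the 27607 genes of the count tables. They were the claudin genes CLDN1, CLDN3, CLDN4, CLDN6 and CLDN7, the occludin gene OCLN, and the scaffold genes TJP1, TJP3 and PATJ. All 9 were found, each with 1 identifier and annotated as protein coding. The identifiers were ENSBTAG00000013148 (CLDN1), ENSBTAG00000040432 (CLDN3), ENSBTAG00000026278 (CLDN4), ENSBTAG00000045901 (CLDN6), ENSBTAG00000019448 (CLDN7), ENSBTAG00000000561 (OCLN), ENSBTAG00000015398 (TJP1), ENSBTAG00000018342 (TJP3) and ENSBTAG00000021975 (PATJ). They were read in bovine endometrial epithelial cells from the upper chamber and stromal enriched cells from the lower chamber of an endometrium-on-a-chip, a perfused device in which a porous membrane separates the cell types. In the first experiment the medium held 5 mM or 50 mM glucose, and in the second it held 5 mM glucose with a vehicle (acetic acid in phosphate-buffered saline), 1 ng/mL or 10 ng/mL insulin. Each of the 10 groups had 3 libraries, named biological replicates in the study, which gave 12 glucose and 18 insulin libraries. The cells were primary cells, and the lower chamber was seeded with an enriched rather than a pure stromal population.

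Tight junctions seal the space between neighbouring epithelial cells near their apical surface and keep apical and basolateral membrane proteins apart. Claudins are membrane-spanning proteins that polymerise into the strands of the junction and set which ions and small molecules pass. Occludin joins these strands, and the zonula occludens proteins and PATJ hold them to the actin cytoskeleton and to the polarity complexes from the cytoplasmic side. In the endometrium this seal is part of the luminal and glandular epithelium, and the uterine fluid lies on its apical side.

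A library of the glucose experiment held 13493503 to 16647701 counted reads, and a library of the insulin experiment 8826470 to 13214728. Levels are given as CPM, the count scaled to 1000000 counted reads of the library, and they are not comparable between genes, because they are not divided by gene length. A count of 0 allows up to 3 counts, or 0.18 to 0.34 CPM across the 30 libraries, for counting error only. The 20 stromal marker symbols (21 identifiers, with collagen genes, VIM and PDGFRA among them) were each called lower in epithelial than in stromal libraries in all 5 conditions. The 20 epithelial markers, such as keratins, EPCAM and CDH1, were called higher in epithelial libraries in 19 of 20 cases at 5 mM glucose, in none at 50 mM, and in 20 of 20 at each insulin dose. Several stromal libraries also held epithelial transcripts. The median level of the 20 epithelial markers, as a percentage of the epithelial library of the same replicate, was 63.6% in stromal replicate 3 at 50 mM glucose, 15.5% and 5.88% in replicates 1 and 2 at 50 mM, and 6.8% in replicate 1 at 5 mM. It was 3.66% in stromal replicate 2 of the vehicle group and 3.94% in replicate 1 at 10 ng/mL, and at most 0.369% in the other 9 stromal libraries. No epithelial marker was at 0 in all stromal libraries. Fits that leave out 1 replicate number at a time are given below. All 3 stromal libraries at 50 mM glucose held epithelial transcripts, so no fit at 50 mM was without them. In bulk RNA fewer cells of a type and less RNA per cell cannot be told apart.

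**Figure D1:**
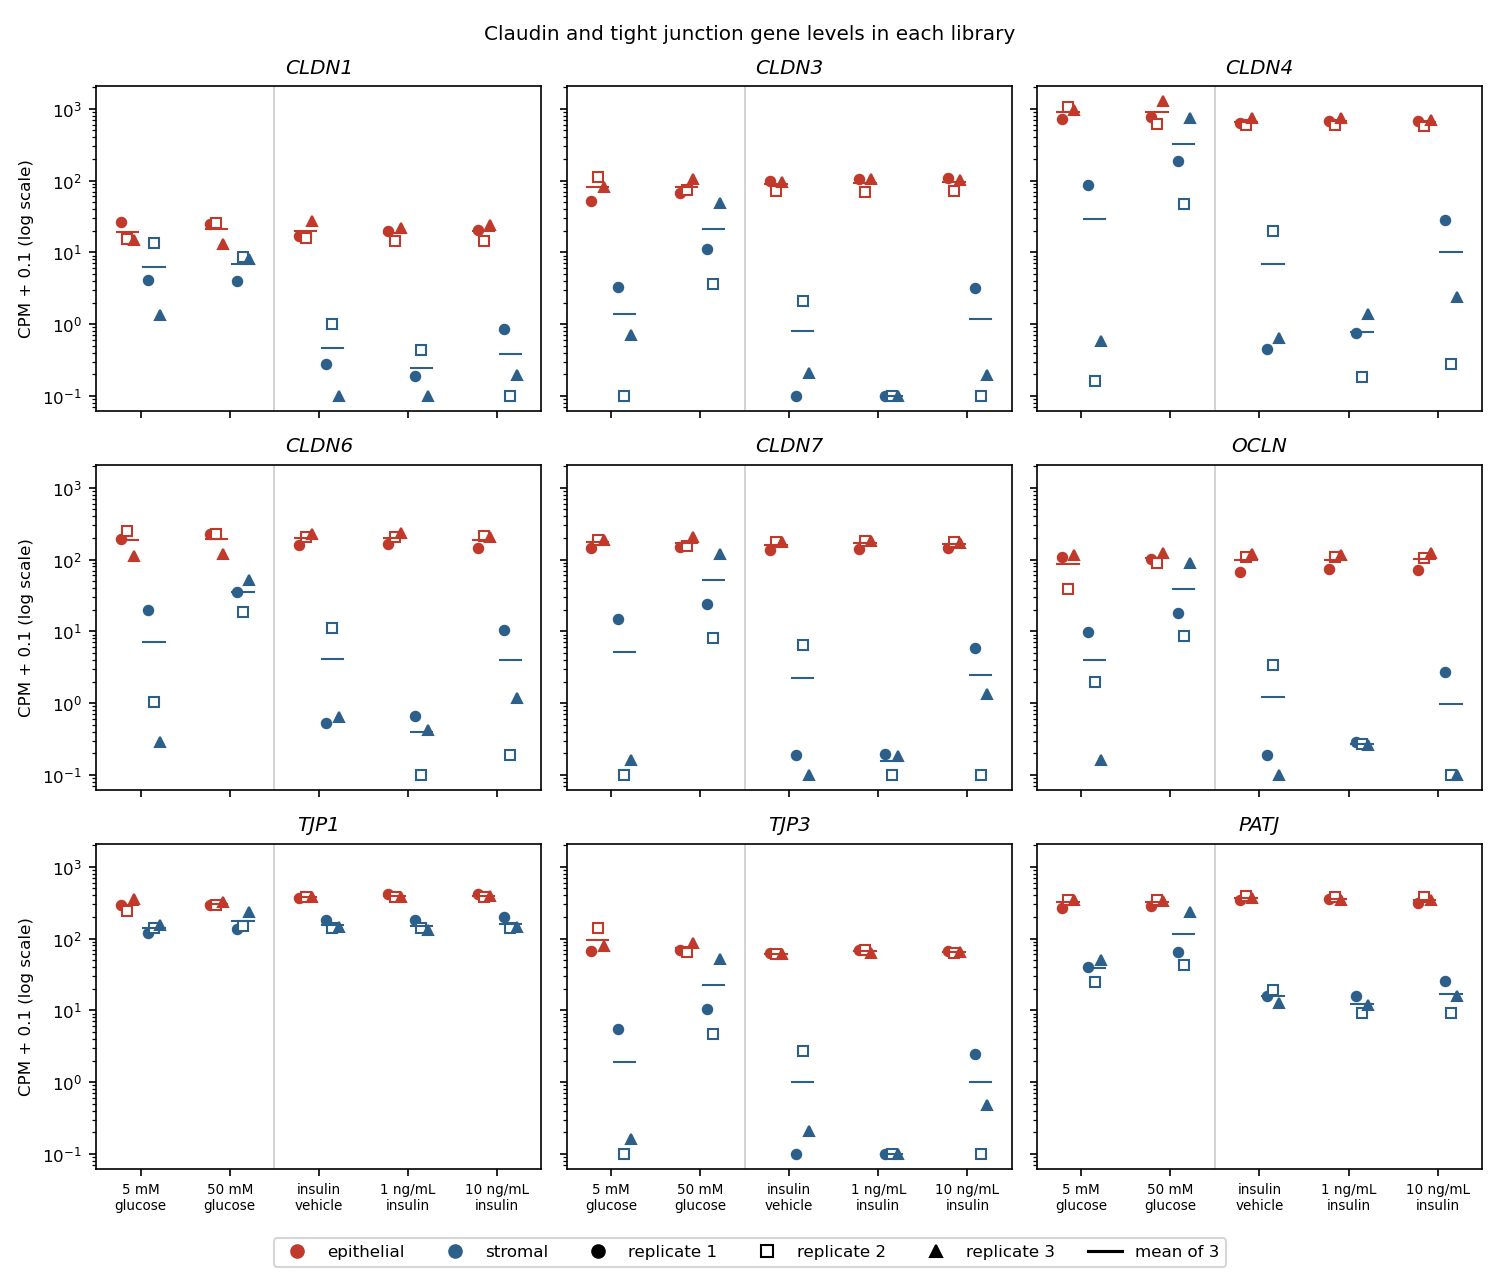
Level of each of the 9 genes in all 30 libraries, as CPM + 0.1 on a log axis, so that a library at 0 sits at 0.1. Red marks are epithelial and blue marks stromal libraries, the marker shape gives the replicate, and bars are means of 3. Epithelial CLDN4 stays between 578 and 1290 CPM, for example, while stromal CLDN4 runs from 0.0629 to 735 CPM and stromal TJP1 from 120 to 236 CPM.

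The claudins came first among the members by role, since they form the strand itself. CLDN4 had 718, 1047 and 954 CPM in epithelial replicates 1 to 3 at 5 mM glucose and 771, 614 and 1290 CPM at 50 mM. In the insulin experiment its epithelial level lay between 578 and 748 CPM over 9 libraries, with a median of 671 CPM. In stromal cells it had 87.4, 0.0629 and 0.49 CPM at 5 mM glucose and 187, 46.5 and 735 CPM at 50 mM. The stromal level of replicate 3 at 50 mM thus lay above the lowest epithelial library at 50 mM, and the groups overlapped there. In the insulin experiment the stromal level of CLDN4 was 0.35, 19.6 and 0.542 CPM with vehicle, 0.648, 0.0848 and 1.29 CPM at 1 ng/mL, and 27.9, 0.175 and 2.31 CPM at 10 ng/mL. The high library of the vehicle group was replicate 2 and that of the 10 ng/mL group was replicate 1, which were also those with the most epithelial marker transcripts.

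CLDN3, which like CLDN4 is a claudin typical of simple epithelia and lies next to it in the RefSeq gene order (assembly ARS-UCD2.0), had 51.5, 112 and 81.0 CPM in epithelial cells at 5 mM glucose and 66.0, 73.8 and 105 CPM at 50 mM. Its stromal level was 3.19, 0 and 0.61 CPM at 5 mM and 11.2, 3.55 and 48.3 CPM at 50 mM. No stromal library of the 1 ng/mL group held a count of CLDN3, and the other stromal insulin libraries held 0 to 41 counts. CLDN7, a claudin found along the lateral membrane of many epithelia, had 144, 189 and 186 CPM in epithelial cells at 5 mM glucose and 151, 155 and 204 CPM at 50 mM. In stromal cells it had 14.9, 0 and 0.06 CPM at 5 mM and 23.9, 7.85 and 121 CPM at 50 mM. The stromal order was the same for CLDN3, CLDN4 and CLDN7 at 50 mM, with replicate 3 highest and replicate 2 lowest, and replicate 1 was the highest of each at 5 mM. CLDN6, OCLN and TJP3 had the same order at 50 mM and the same highest replicate at 5 mM, and PATJ had the same order at 50 mM.

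CLDN6, a claudin best known from embryonic epithelia, had 196, 250 and 112 CPM in epithelial cells at 5 mM glucose and 228, 228 and 119 CPM at 50 mM. Its stromal level was 19.7, 0.943 and 0.18 CPM at 5 mM and 34.9, 18.5 and 51.8 CPM at 50 mM. Replicate 3 was the lowest epithelial library at both concentrations. The gene overlaps TNFRSF12A in the RefSeq annotation, and whether the counting used the strand of the reads is not given in the sources used here, so reads of the overlap cannot be assigned. CLDN1, a claudin of many tight epithelia, had 26.5, 15.2 and 14.7 CPM in epithelial cells at 5 mM and 24.5, 25.3 and 13.0 CPM at 50 mM. In stromal cells it had 4.04, 13.2 and 1.22 CPM at 5 mM and 3.88, 8.39 and 8.01 CPM at 50 mM. CLDN1 was the only claudin of the 5 whose highest stromal glucose library was not replicate 3 at 50 mM but replicate 2 at 5 mM. In the stromal insulin libraries CLDN1 was at most 0.905 CPM, or 10 counts.

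OCLN had 109, 38.6 and 115 CPM in epithelial cells at 5 mM glucose and 102, 88.6 and 122 CPM at 50 mM. In stromal cells it had 9.77, 1.89 and 0.06 CPM at 5 mM and 17.7, 8.60 and 89.6 CPM at 50 mM. Stromal replicate 3 at 50 mM again stood inside the epithelial range, and OCLN and CLDN4 were the members whose cell types overlapped, at 50 mM and in none of the other 4 conditions. The epithelial library of replicate 2 at 5 mM glucose had the lowest OCLN of the 15 epithelial libraries, which otherwise lay between 66.4 and 122 CPM.

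Of the scaffold genes, TJP3 encodes zonula occludens 3, which is largely restricted to epithelia, and TJP1 encodes zonula occludens 1, which is also found at adherens junctions of other cell types. TJP3 had 67.7, 140 and 79.4 CPM in epithelial cells at 5 mM glucose and 68.2, 65.2 and 86.8 CPM at 50 mM. Its stromal level was 5.41, 0 and 0.06 CPM at 5 mM and 10.2, 4.64 and 52.5 CPM at 50 mM, and all 3 stromal libraries at 1 ng/mL insulin held 0 counts. The library with the lowest OCLN, epithelial replicate 2 at 5 mM, was the one with the highest TJP3. TJP1 had 291, 239 and 353 CPM in epithelial cells at 5 mM and 289, 297 and 327 CPM at 50 mM, and 120, 142 and 153 CPM and 134, 149 and 236 CPM in stromal cells. PATJ, a multi-PDZ protein of the Crumbs polarity complex, had 265, 347 and 346 CPM and 284, 345 and 336 CPM in epithelial cells at 5 and 50 mM, and 39.9, 24.9 and 49.9 CPM and 64.0, 43.3 and 236 CPM in stromal cells. TJP1 and PATJ were the members with more than 3 counts in every stromal library, with 120 to 236 CPM and 8.95 to 236 CPM over the 15 libraries.

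The first comparison asked how the members differed between epithelial and stromal cells in each condition. Calls required both an adjusted p-value below 0.05 (edgeR's quasi-likelihood test, Benjamini-Hochberg over every gene tested) and a log2 fold change of more than 0.1 in size, and all 9 members passed the filter on low counts in these 5 comparisons. With vehicle, all 9 members were higher in epithelial cells, where 28.3% of all tested protein-coding genes were called in that direction. The same held for 9 of 9 members at 1 ng/mL insulin, against 29.9% of all genes, and for 9 of 9 at 10 ng/mL, against 27.2%. At 5 mM glucose 6 of 9 members were called higher (background 10.6%), and at 50 mM it was 1 of 9 (background 5.01%). No member was called lower, and all 9 were higher in epithelial cells in 3 of 3 pairs in each condition. The share of all genes higher in 3 of 3 pairs was not counted, and it is at least the share without overlap given next. All 3 epithelial libraries lay above all 3 stromal libraries for 9 members at 5 mM glucose (29.0% of all genes), 7 at 50 mM (21.0%), and 9 each with vehicle (36.5%), 1 ng/mL (38.7%) and 10 ng/mL insulin (36.9%).

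The differences were large for the claudins, OCLN and TJP3 and small for TJP1. With vehicle, the log2 fold change was 7.99 (SE 1.64) for CLDN4, 6.91 (SE 0.958) for CLDN3, 6.71 (SE 1.22) for CLDN7, 6.58 (SE 0.953) for OCLN, 6.26 (SE 1.11) for CLDN6, 6.12 (SE 0.949) for TJP3 and 5.59 (SE 0.754) for CLDN1. The 95% intervals of these 7 overlapped, so no order among them was resolved. As ratios of counts pooled over the 3 libraries and scaled to their totals, the 7 ran from 46.7 (CLDN6) to 124 (CLDN3). CLDN4, with the largest fitted value, had a ratio of 92.3. PATJ had 4.47 (SE 0.137, adjusted p = 0.000651 by edgeR's quasi-likelihood test) and TJP1 1.19 (SE 0.105, adjusted p = 0.00143). The interval of PATJ, 4.11 to 4.82, lay inside that of CLDN1, and that of TJP1, 0.92 to 1.46, lay below those of the other 8 members. At 10 ng/mL the values were 5.92 to 7.3 for the claudins, OCLN and TJP3, 4.38 for PATJ and 1.22 for TJP1.

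At 1 ng/mL, where the epithelial markers were lowest in the stromal libraries, the differences were widest. CLDN3 was at least 359-fold and TJP3 at least 260-fold higher in epithelial cells, taking 3 counts per library as the floor for the stromal libraries, which held 0 counts. CLDN7 had 2 stromal counts against 5288 epithelial counts, a ratio of 2936 with a 95% counting interval of 812 to 24249. CLDN4 had a ratio of 981 (659 to 1531), CLDN6 of 697 (379 to 1454), OCLN of 581 (267 to 1586) and CLDN1 of 128 (54.6 to 396), on 24, 10, 6 and 5 stromal counts. PATJ was 29.7-fold (26.9 to 32.8) and TJP1 2.63-fold (2.54 to 2.71) higher. These counting intervals pool the 3 libraries of a group and leave out the spread between replicates. The fitted log2 fold change, which includes it, was 4.79 (95% interval 4.29 to 5.3) for PATJ and 1.29 (1.02 to 1.55) for TJP1. The median fitted log2 fold change of the 9 members was 9.28, or 8.49 with CLDN3 and TJP3 at their floor values, and the median over all genes was -0.00381.

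In the glucose experiment fewer members were called. The median log2 fold change of the 9 was 6.45 at 5 mM and 2.02 at 50 mM, against 6.26 with vehicle and 6.17 at 10 ng/mL. At 5 mM, PATJ (log2 fold change 2.89, SE 0.397, adjusted p = 0.00795), CLDN6 (6.56, SE 1.39, 0.0236), CLDN3 (6.45, SE 1.38, 0.0244), TJP3 (7.34, SE 1.78, 0.0355), OCLN (4.99, SE 1.25, 0.0394) and CLDN7 (8.02, SE 2.16, 0.0487) were called by edgeR's quasi-likelihood test. CLDN4 (9.39, SE 2.69, adjusted p = 0.0593), TJP1 (0.86, SE 0.294, 0.0973) and CLDN1 (1.94, SE 0.715, 0.121) were not. Some of these fitted values exceeded the ratio of pooled counts scaled to library totals. That ratio at 5 mM was 31.8 (95% counting interval 30.1 to 33.6) for CLDN4 and 35.9 (31.4 to 41.1) for CLDN7. Stromal replicates 1 to 3 held 1341, 1 and 8 counts of CLDN4 and 228, 0 and 1 of CLDN7. Without the replicate block 4 were called, with CLDN6 and CLDN7 lost (11.1% of all genes called higher), and 7, 4 and 5 were called without replicate 1, 2 and 3 (11.9%, 11.4% and 8.38%). At 50 mM, CLDN6 was called (2.36, SE 0.5, adjusted p = 0.0425), and the other 8 had values of 0.71 to 2.45 with adjusted p-values of 0.0552 to 0.089. Without replicate 3, whose stromal library held the most epithelial marker transcripts, all 9 were called at 50 mM with values of 0.87 to 3.26, where 13.2% of all genes were called higher. None was called there without replicate 1 (0.015% of all genes), and CLDN3 and CLDN6 were without replicate 2 (3.53%). DESeq2 called all 9 (12.4%). With vehicle, 2 members (TJP1 and PATJ) were called without replicate 1 (19.9% of all genes), and 9 and 8 without replicates 2 and 3 (22.3% in each). At 10 ng/mL, 9, 9 and 6 were called without replicates 1, 2 and 3 (23.7%, 18.7% and 17.9%), with CLDN4, CLDN6 and CLDN7 lost without replicate 3.

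**Figure D2:**
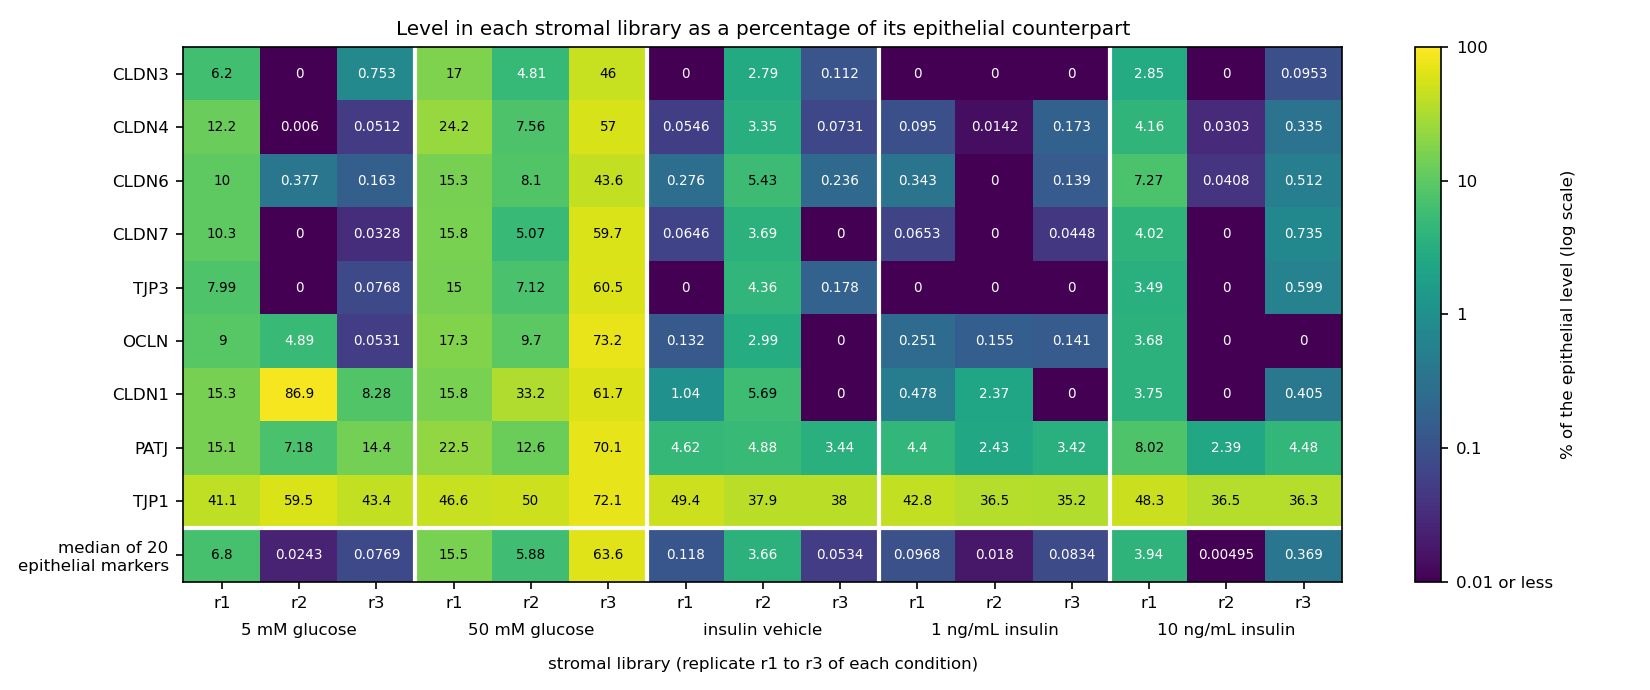
Level of each gene in each of the 15 stromal libraries as a percentage of the epithelial library of the same replicate and condition, with the median of 20 epithelial markers in the bottom row. Colour is on a log scale. The upper 6 rows broadly follow the marker row across the libraries, with departures from the marker median where it is low. In replicate 2 at 5 mM glucose, OCLN is at 4.89% and CLDN6 at 0.377%, against a marker median of 0.0243% and single markers of 0.0% to 9.85%. In replicate 3 at 5 mM, CLDN3 is at 0.753%, against a median of 0.0769% and single markers of 0.0% to 12.9%. TJP1 lies between 35.2% and 72.1% throughout.

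The stromal levels of the members were set beside the epithelial markers in the same libraries. In stromal replicate 3 at 50 mM glucose, where the marker median was 63.6%, CLDN3 was at 46.0%, CLDN4 at 57.0%, CLDN6 at 43.6%, CLDN7 at 59.7%, TJP3 at 60.5% and OCLN at 73.2% of the epithelial level. In stromal replicate 1 at 50 mM, with a marker median of 15.5%, these 6 members lay between 15.0% and 24.2%. In replicate 2 with vehicle, with a marker median of 3.66%, they lay between 2.79% and 5.43%. Across the 15 stromal libraries, the log2(CPM + 1) of these 6 correlated with the mean of the 20 markers at Pearson's r = 0.975 to 0.991, PATJ at 0.868, CLDN1 at 0.678 and TJP1 at 0.332. These libraries share replicate numbers and experiments, so the coefficients only describe them. The part of epithelial transcripts in the stromal levels of these 6 genes was not tested.

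CLDN1, PATJ and TJP1 departed from the marker median in named libraries. In stromal replicate 2 at 5 mM glucose the marker median was 0.0243%, and CLDN3, CLDN7 and TJP3 had 0 counts. In that library CLDN1 stood at 86.9% of the epithelial level, on 210 counts, and OCLN at 4.89%, on 30 counts. PATJ stood at 7.18% in the same library and never below 2.39% in any of the 15. The single epithelial markers ran from 0.0% to 9.85% in stromal replicate 2 at 5 mM. OCLN and PATJ lay within that range and CLDN1 above it. TJP1 was at 35.2% to 59.5% in the 14 stromal libraries other than replicate 3 at 50 mM, at which it was 72.1%.

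The second comparison asked whether 50 mM glucose altered the members relative to 5 mM. In epithelial cells, 0 of 9 members and 0.0% of all genes were called by edgeR's quasi-likelihood test. None of the members had an unadjusted p-value under 0.05, against 1.42% of all genes that also passed the fold threshold, and DESeq2 called none. OCLN had the largest positive value, 0.40 (95% interval -0.38 to 1.17, adjusted p = 0.814), and TJP3 the largest negative value, -0.31 (-1.15 to 0.53, adjusted p = 0.814). CLDN1 had 0.15 (-0.56 to 0.86), CLDN3 0.05 (-0.71 to 0.81), CLDN4 -0.07 (-0.84 to 0.71), CLDN6 0.06 (-0.48 to 0.60), CLDN7 -0.03 (-0.58 to 0.53), TJP1 0.07 (-0.44 to 0.58) and PATJ 0.02 (-0.48 to 0.52). The groups overlapped for all 9 members, while they did not for 5.48% of all genes. No member moved the same way in 3 of 3 pairs, and 12.8% of all genes were higher at 50 mM in 3 of 3. The epithelial library of replicate 2 at 5 mM, had the lowest OCLN and the highest TJP3 and CLDN3 of the 6 libraries. Without replicate 2, TJP3 was 0.10 and OCLN 0.04, and CLDN3 was called at 0.40 (adjusted p = 0.0381 by edgeR's quasi-likelihood test), where 1.24% of all genes were called.

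In stromal cells, 0 of 9 members and 0.0% of all genes were called between 50 mM and 5 mM, but all 9 values were above 0. Their median log2 fold change was 3.71, and the median over all genes was -0.03. CLDN4 had 6.48 (SE 2.71), CLDN7 4.75 (SE 2.27), TJP3 4.27 (SE 1.84), CLDN3 4.12 (SE 1.15), CLDN6 3.71 (SE 1.46), OCLN 3.02 (SE 1.7), PATJ 1.17 (SE 0.346), CLDN1 0.47 (SE 0.734) and TJP1 0.22 (SE 0.143). The adjusted p-values from edgeR's quasi-likelihood test were 0.702 to 0.827. Of the members, 8 were higher at 50 mM in 3 of 3 pairs, which also held for 23.4% of all genes, and CLDN1 was higher in 1 of 3. The groups did not overlap for CLDN3, as was the case for 6.21% of all genes. At an unadjusted p under 0.05, CLDN3 and PATJ passed in edgeR's quasi-likelihood test, against 4.79% of all genes.

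The epithelial markers moved with these stromal values. All 20 were above 0 in the same stromal comparison, with a median of 4.49 and none called, and all 21 stromal marker identifiers were below 0, with a median of -0.51. The part of epithelial transcripts in the difference of the members was not tested. DESeq2 called 4 members, CLDN3 (5.33), CLDN4 (8.20), CLDN7 (8.19) and TJP3 (7.24), and 1.3% of all genes. Without replicate 1, whose 5 mM stromal library already held epithelial transcripts, CLDN4, CLDN7 and TJP3 were called, with adjusted p-values of 0.0288 to 0.0298 by edgeR's quasi-likelihood test, as were 0.358% of all genes. The 5 mM libraries left in that fit held 1 and 8 counts of CLDN4, 0 and 1 of CLDN7 and 0 and 1 of TJP3. The difference of the glucose effect between the cell types was tested directly. None of the 9 members and 0.0% of all genes were called, and 6 members had an unadjusted p-value under 0.05, all with the larger change in stromal cells, against 7.45% of all genes in either direction. Without replicate 1, 5 members were called in that test (2.2% of all genes), and DESeq2 called 4 (1.71%).

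**Figure D3:**
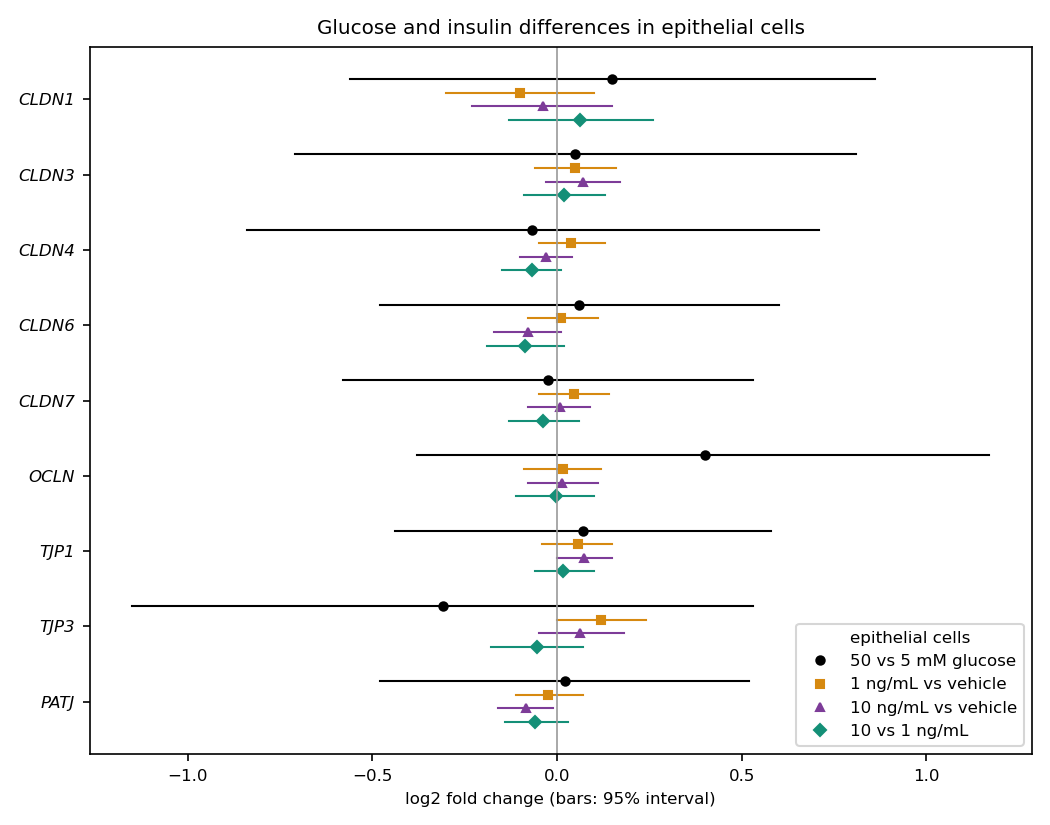
Log2 fold change of each gene in epithelial cells between glucose concentrations (black) and insulin doses (coloured), with 95% intervals from edgeR. All values lie between -0.31 and 0.40, and the intervals of the insulin comparisons are much narrower than those of the glucose comparison.

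The third comparison asked whether insulin altered the members. In epithelial cells, 0 of 9 members were called at 1 ng/mL against vehicle (0.0% of all genes), at 10 ng/mL against vehicle (0.162%) or at 10 against 1 ng/mL (0.0%) by edgeR's quasi-likelihood test. The log2 fold changes were between -0.10 and 0.12, and their 95% intervals reached no further than -0.30 and 0.26. DESeq2 called none either. PATJ was the member with an unadjusted p-value under 0.05, at 10 ng/mL against vehicle, and it missed the fold threshold. Of all genes, 2.82%, 6.43% and 4.11% passed the unadjusted threshold with the fold in the 3 comparisons. PATJ had 341, 390 and 363 CPM with vehicle and 317, 375 and 345 CPM at 10 ng/mL, lower in 3 of 3 pairs with overlapping groups. Its log2 fold change was -0.09 (95% interval -0.16 to -0.01, adjusted p = 0.644 by edgeR's quasi-likelihood test). The comparisons share the vehicle or the 1 ng/mL libraries, so their values are not independent.

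Most epithelial members differed more between replicates than between insulin doses, with TJP3 the exception. CLDN3 had 98.4, 71.4 and 96.7 CPM with vehicle, 104, 69.2 and 105 CPM at 1 ng/mL, and 109, 71.9 and 101 CPM at 10 ng/mL, with replicate 2 the lowest at each dose. OCLN had 66.4, 109 and 121 CPM, 73.7, 109 and 115 CPM, and 72.1, 106 and 122 CPM, with replicate 1 the lowest at each dose. CLDN6 had 158, 203 and 229 CPM, 162, 203 and 232 CPM, and 144, 215 and 206 CPM, again with replicate 1 lowest. Of the variance of log2(CPM + 1) over the 9 libraries, the replicate number held 98.1% for OCLN, 96.6% for CLDN3, 96.2% for CLDN7, 92.2% for CLDN6, 90.7% for CLDN4 and 87.3% for CLDN1. For these 6 genes the dose held 0.139% to 4.16%. The scaffold genes varied less in all, and the replicate number held 69.6% for PATJ, 34.4% for TJP1 and 24.6% for TJP3. TJP3, with 50.3% between doses, ranged from 60.2 to 70.0 CPM over the 9 libraries.

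In stromal cells most members were too low for the test. TJP1 and PATJ passed the filter on low counts in all 3 insulin comparisons, CLDN4 in 2, and CLDN6 and CLDN7 in the comparison of 10 ng/mL with vehicle. None was called at 1 ng/mL against vehicle (0.0% of all genes), at 10 ng/mL against vehicle (0.0%) or at 10 against 1 ng/mL (0.00814%) by edgeR's quasi-likelihood test. The claudins had wide 95% intervals, so these fits resolved no change in either direction. Against vehicle, 10 ng/mL gave CLDN4 0.72 (-13.79 to 15.22), CLDN6 0.12 (-12.29 to 12.53) and CLDN7 0.62 (-12.28 to 13.53). For 10 against 1 ng/mL, CLDN4 had 3.43 (-0.74 to 7.59). TJP1 had 182, 141 and 144 CPM with vehicle, 179, 138 and 132 CPM at 1 ng/mL and 200, 138 and 143 CPM at 10 ng/mL, and its log2 fold changes were -0.04 to 0.07. PATJ had 15.7, 19.0 and 12.5 CPM, 15.7, 9.07 and 11.9 CPM, and 25.4, 8.95 and 15.5 CPM. Its difference between 10 and 1 ng/mL was 0.37 (SE 0.127, unadjusted p under 0.05, adjusted p = 1.0 by edgeR's quasi-likelihood test), and replicate 1 at 10 ng/mL, the highest of the 9 libraries, also had the marker median of 3.94%. PATJ was the only member that passed the unadjusted threshold in these 3 comparisons, against 5.05%, 3.32% and 3.53% of all genes, and DESeq2 called none. Without replicate 2, whose vehicle library held epithelial transcripts, CLDN6 and CLDN7 were called higher at 10 ng/mL than with vehicle (0.403% of all genes called) and than at 1 ng/mL (0.0803%). Stromal replicate 1 at 10 ng/mL, with the marker median of 3.94%, stayed in both fits. That library held 138 counts of CLDN6 and 76 of CLDN7. Replicate 1 held 5 and 1 counts of them with vehicle, and 6 and 1 at 1 ng/mL. The part of epithelial transcripts in these calls was not tested.

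The 1 ng/mL difference between cell types was tested in the same way. CLDN3, CLDN7 and TJP3 were called by edgeR's quasi-likelihood test, as were 0.434% of all genes (6.41% at the unadjusted threshold), each with a more positive difference in epithelial cells. The stromal counts behind it were 0, 22 and 1 for CLDN3, 1, 71 and 0 for CLDN7 and 0, 29 and 1 for TJP3 in vehicle replicates 1 to 3, and between 0 and 1 at 1 ng/mL. Vehicle replicate 2, in which the marker median was 3.66%, held nearly all of these counts, and 0 members were called without replicate 2 or without the replicate block. For 10 ng/mL against vehicle, 0 of 9 members and 0.0% of all genes were called, no member passed the unadjusted threshold (4.3% of all genes), and DESeq2 called none. The direction of that difference turned with the library left out. Without replicate 1, whose 10 ng/mL stromal library held epithelial transcripts, CLDN3 and OCLN were called with values above 0, and 0.322% of all genes were called. Without replicate 2, whose vehicle stromal library did, 7 members (all but CLDN1 and TJP1) were called with values below 0, and 1.26% of all genes were called.

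Within epithelial cells the members did not vary as a block. Over the 15 libraries, the log2(CPM + 1) of TJP3 correlated with CLDN4 at Pearson's r = 0.722, with OCLN at -0.636 and with TJP1 at -0.671, and CLDN1 with CLDN7 at -0.503. The highest TJP3 and lowest OCLN and TJP1 were all in replicate 2 at 5 mM glucose. In the stromal libraries the coefficients among CLDN3, CLDN4, CLDN6, CLDN7, OCLN and TJP3 were 0.922 to 0.991, and those of TJP1 with these 6 were 0.234 to 0.429. The genes whose pattern was most like a member's were sought among 12597 epithelial and 12538 stromal genes with a mean of at least 1 CPM. In stromal libraries they were ST14, CDH1 and MUC1 for CLDN4 (r = 0.995 to 0.997), PRSS8, GRHL2 and RAB25 for TJP3 (0.996 to 0.998), LAD1, ERBB3 and LY6G6E for CLDN7 (0.996), and WWP2, MSL2 and MOCOS for CLDN1 (0.956 to 0.982). In epithelial libraries they were SUCLG2, PDHA1 and SEC23IP for OCLN (0.963 to 0.974), and AXIN1, DGCR2 and CDC42BPG for TJP3 (0.969 to 0.973). PRSS8, GRHL2, RAB25, ST14 and CDH1 are among the 20 epithelial markers, and the other 7 members had none of these markers among their nearest 3 stromal genes.

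**Figure D4:**
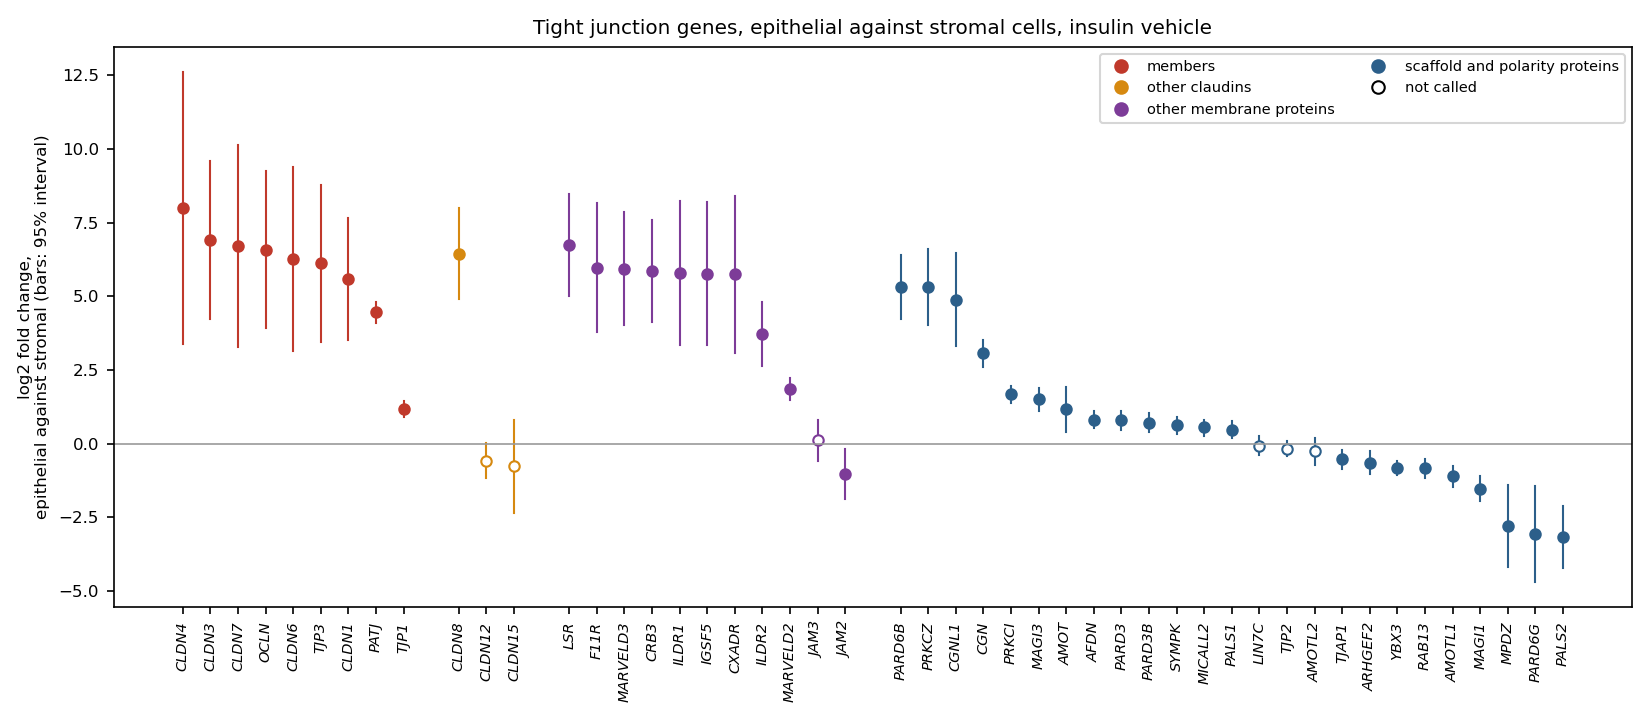
Log2 fold change between epithelial and stromal cells with insulin vehicle for the members and the tested genes of 3 other tight junction lists, with 95% intervals from edgeR. Filled points were called and open points were not. The membrane proteins lie mostly above 5, while the scaffold and polarity proteins run from 5.32 down to -3.17. The point of CLDN8 rests on 1 stromal count, so its fitted value depends on the prior count.

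The rest of the tight junction was read from 3 lists of other genes. Of 19 other claudins, 8 could be matched to an identifier. CLDN8, a claudin of renal and other ion-transporting epithelia, had group means of 2.77 to 3.91 CPM in the epithelium and of at most 0.368 CPM in the stroma, and was called higher in epithelial cells at 50 mM glucose (log2 fold change 3.23) and in the 3 insulin groups. CLDN8 was at least 13.7-fold higher at 1 ng/mL and at least 10.8-fold at 10 ng/mL, where the stromal libraries held 0 counts. At 5 mM glucose CLDN8 was not among the claudins tested. It had 167 epithelial and 0 stromal counts there, at least 20.1-fold higher. With vehicle, CLDN8 had 1 stromal count, a ratio of 115 (20.2 to 4579). CLDN23 was called higher at 5 mM glucose on 1 stromal count, a ratio of 69.6 (12.0 to 2792). CLDN12 was called lower in epithelial cells at 1 ng/mL insulin (-0.83). CLDN9, which lies next to CLDN6, was at most 0.315 CPM as a group mean.

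Of 12 other membrane proteins of the junction, 11 were matched, and 9 were called higher and JAM2, an adhesion molecule also known from endothelia, lower (-1.04) in epithelial cells with vehicle. The largest values were those of LSR (6.74), the receptor that recruits tricellulin to tricellular corners, F11R (5.97), which encodes junctional adhesion molecule A, and MARVELD3 (5.94), a relative of occludin. Of 28 scaffold and polarity proteins, 27 were matched and 25 tested with vehicle, of which 13 were called higher and 9 lower. Of all 12876 protein-coding genes tested with vehicle, 3639 (28.3%) were called higher and 3580 lower. PARD6B (5.32) and PRKCZ (5.31), partners in the polarity complex with PARD3, and CGNL1 (4.89), a junctional relative of cingulin, were the highest. PALS2 (-3.17), PARD6G (-3.05) and MPDZ (-2.80), the paralogue of PATJ, were the lowest. PATJ was above 0 in all 5 comparisons of the cell types, and MPDZ was called lower in epithelial cells with vehicle, at 1 and 10 ng/mL insulin (-2.88 and -2.76) and at 5 and 50 mM glucose (-3.53 and -2.36). In the other comparisons of the cell types, the membrane protein genes called with the largest values were MARVELD3, CRB3 and ILDR1 at 5 mM glucose and at 1 ng/mL, MARVELD3, CRB3 and ILDR2 at 50 mM, and MARVELD3, ILDR1 and IGSF5 at 10 ng/mL. At 1 ng/mL the stromal libraries held 0 counts of MARVELD3, CRB3 and ILDR1. JAM2 was the one membrane gene called lower in each, with -2.75 and -1.94 at 5 and 50 mM glucose and -0.89 and -0.88 at 1 and 10 ng/mL. Among the scaffold and polarity genes, PRKCZ and PARD6B were the highest at 5 mM (5.47 and 4.29), 1 ng/mL (7.06 and 6.55) and 10 ng/mL (5.56 and 5.32), followed by CGN (3.59 and 3.19) at 5 mM and 10 ng/mL and CGNL1 (3.38) at 1 ng/mL. PARD6G (-3.98, -4.65 and -3.65) and PALS2 (-2.75, -2.57 and -2.87) were with MPDZ the lowest in these 3. At 50 mM MAGI3 (1.04) and PARD3B (0.82) were called higher, and PALS2 (-2.14) and RAB13 (-0.83) lower. No gene of the 3 lists was called between glucose concentrations or insulin doses within a cell type. LSR (2.46, adjusted p = 0.048) and IGSF5 (3.20, adjusted p = 0.0173) were called by edgeR's quasi-likelihood test in the difference of the 1 ng/mL effect between cell types, as were 0.434% of all genes. Neither was called without replicate 2, without the replicate block or by DESeq2, and LSR was also not called with RLE size factors or without replicate 1.

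The other cell types that the preparation could hold were checked with markers. Endothelial markers summed to 17.2 to 83.3 CPM over 7 genes in epithelial and 5.0 to 23.1 CPM in stromal libraries. Leukocyte markers summed to 159 to 428 CPM over 5 genes in epithelial libraries, of which LCP1 alone held a mean of 257 CPM, and to 2.96 to 186 CPM in stromal libraries. Smooth muscle markers summed to 37.6 to 372 CPM over 6 genes in epithelial and 563 to 4136 CPM in stromal libraries. TIE1 and AIF1 had 0 counts in all 9 stromal insulin libraries, and PTPRC, CD3E, TYROBP and KDR were not matched to an identifier and not analysed here. The part of these cell types in the levels of the members was not tested.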

How the data were processed

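RNA of 30 samples was sequenced from stranded libraries as single-end reads. According to the methods and the labels, the authors used Cutadapt and a quality filter, then Rsubread against the bovine reference of Ensembl release 96, kept unique alignments and summarised them per gene with featureCounts. The deposited values are raw counts on 27607 genes. The strand setting of the counting is not given in the sources used here, and unique alignment can lower the counts of near-identical genes. The authors' own comparison tables, which hold fold changes and p-values, were used only to pair gene identifiers with names and types. Gene neighbours and overlaps came from the RefSeq table of the assembly ARS-UCD2.0, a release other than that of the counts, so no coordinates are given. No sequence tables were used here, and the promoter search planned for the members was not run.

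CPM were computed as the count over the library total. Each comparison was fitted on its own libraries with edgeR 4.0.16 in R 4.3.3, with TMM normalisation, filterByExpr, robust glmQLFit and the replicate number as a block, and p-values were adjusted by Benjamini-Hochberg over all genes tested. The difference of an effect between cell types was an interaction term with the replicate within cell type as a block. The block was used because the methods state a paired sample design. Same-numbered libraries deviated together within a cell type, with correlations of 0.193 to 0.836, and less so between cell types, with 0.0363 to 0.515. Counts of called genes were taken over protein-coding genes. The code was tested on simulated data. Alternatives were no block, DESeq2 1.42.0, RLE size factors, every gene with at least 1 count, leaving out each replicate, an unadjusted threshold, and shares against the mean epithelial library. The members and lists were chosen with earlier results of these data known, and named genes followed 1 rule: all members, with insulin comparisons by range unless the unadjusted p was under 0.05, and of the other lists every called claudin, every gene called for glucose or insulin, and, per list and comparison of cell types, the 3 genes called with the largest fold in each direction. Between cell types, fitted folds against a group at 0 to 3 counts are replaced by bounds, counts or names. Nothing in the labels says whether replicates came from separate animals, so p-values measure only the spread between these samples.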

Additional observations from a re-analysis of the deposited data

Results flagged for a closer look

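For 3 genes the difference between 1 ng/mL insulin and vehicle was itself different between the cell types. The fitted difference, epithelial minus stromal, was 6.11 on the log2 scale for CLDN3 (adjusted p = 0.00136), 5.08 for CLDN7 (adjusted p = 0.0203) and 6.55 for TJP3 (adjusted p = 0.0003, all by edgeR's quasi-likelihood test). The stromal libraries at 1 ng/mL held 0 counts of CLDN3 and TJP3 and 2 of CLDN7, so these fitted values depend on the prior count and are no bounds. In epithelial cells the same 3 genes had log2 fold changes of 0.05, 0.05 and 0.12, with none called. The stromal vehicle library of replicate 2 held 22, 71 and 29 counts of them and a median of 3.66% of the epithelial level over 20 epithelial markers. Without replicate 2 the values were 2.70, -0.79 and 2.68, and none was called, and without the replicate block none was called either. DESeq2 called CLDN3 and TJP3. The part of epithelial transcripts in these 3 differences was not tested.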

How the results depend on the processing

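Of the 16 counts of called members, the RLE size factors changed none by more than 1.5 times, and the unblocked fit changed 1. Without the replicate block, the pairing by replicate number left out, the 1 ng/mL difference between cell types had 0 calls in place of 3, and CLDN3 in epithelial cells between glucose concentrations turned to -0.0276; the cause was not tested. DESeq2 gave 4 calls for glucose in stromal cells (1.3% of all genes) and 4 for the glucose difference between cell types (1.71%). Between cell types at 50 mM it gave 9 (12.4% called higher). With every gene of at least 1 count tested, stromal cells had 3 calls at 1 ng/mL against vehicle (0.673% of all genes). They had 4 at 10 against 1 ng/mL (0.71%). The stromal libraries at 1 ng/mL held 0 to 6 counts of the genes called. Between cell types there were then 3 at 5 mM (9.77% of all genes called higher), 6 with vehicle (23.6%) and 7 at 10 ng/mL (21.8%). The 1 ng/mL difference between cell types had 6 (1.73% of all genes). At an unadjusted threshold, 2 members passed for glucose (4.79% of all genes) and 1 for 10 against 1 ng/mL insulin (3.53%) in stromal cells. Between cell types 9 passed in each condition. From 2190 of 13286 genes (5 mM glucose) to 4159 of 12839 (1 ng/mL) also passed there, higher in epithelial cells. For the glucose difference 6 passed (7.45%), and for the 1 ng/mL difference 5 (6.41%). Leaving out 1 replicate gave 0 to 1 calls for glucose in epithelial (0.0% to 1.24% of all genes) and 0 to 3 in stromal cells (0.0% to 0.358%). In stromal cells it gave 0 to 2 for 10 ng/mL against vehicle (0.0% to 0.403%) and for 10 against 1 ng/mL (0.0803% to 0.333%). Between cell types it gave 0 to 9 at 50 mM (0.015% to 13.2% called higher), 2 to 9 with vehicle (19.9% to 22.3%) and 6 to 9 at 10 ng/mL (17.9% to 23.7%). The glucose, 1 ng/mL and 10 ng/mL differences between cell types had 0 to 5, 0 to 4 and 0 to 7. Of all genes, 0.0% to 2.2%, 0.00744% to 0.91% and 0.0% to 1.26% were called in these fits. In epithelial cells the glucose values then ranged from -0.10 to 0.30 for CLDN1, -0.15 to 0.40 for CLDN3, -0.34 to 0.31 for CLDN4, -0.0632 to 0.19 for CLDN6, -0.12 to 0.13 for CLDN7, -0.0234 to 0.14 for TJP1, -0.55 to 0.10 for TJP3 and -0.0627 to 0.0655 for PATJ. In stromal cells CLDN1 ranged from -0.45 to 1.27, and in the 1 ng/mL difference CLDN7 ranged from -0.79 to 5.99 and OCLN from -1.71 to 3.24. Levels near 1 count limit the stromal folds, and 3 replicates limit every test.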
